A study of Mus musculus with 19 samples.

Results

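The genes described here are the myosin light chains of atrial and ventricular muscle, Myl1, Myl2, Myl3, Myl4 and Myl7, together with the cardiac light chain kinase gene Mylk3. They were chosen by name, and 5-hmC peaks were assigned to a gene when they overlapped its span or the 5 kb on either side, which makes 6 windows of the 21000 made for protein-coding genes with a curated RefSeq transcript. Hydroxymethylated DNA immunoprecipitation and sequencing (hMeDIP-seq), in which an antibody enriches DNA fragments that carry 5-hydroxymethylcytosine (5-hmC), was performed on CMCs of C57BL/6J male mice at 4 points with 2 replicates each, giving 8 peak lists. E14.5 CMCs came from ventricles of embryos, Neonatal CMCs from ventricles of 1- to 2-day-old pups, Adult CMCs from the left ventricle of 2-month-old mice, and TAC CMCs from adult mice 1 week after transverse aortic constriction, which loads the left ventricle with pressure. The labels give no engineered allele, and no atrial tissue was taken, so the atrial isoforms were measured in ventricular cells. How many animals contributed to a replicate was not given in the sources used here. The lists hold peak positions without read numbers, so that read depth and expression were not measured here, and fewer cells carrying the mark cannot be told apart from less mark per cell.

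Every myosin head carries an essential and a regulatory light chain on its neck, which stiffen it and tune its force. Myl7 is the regulatory and Myl4 the essential light chain of the atrium, and Myl4 is also made in the fetal ventricle. Myl2 and Myl3 are their ventricular counterparts. Myl1 is the essential light chain of fast skeletal muscle, made as a long and a short form from alternative promoters, and was grouped with the atrial and fetal forms. Mylk3 phosphorylates the regulatory light chain of cardiac myosin. 5-hmC is made from 5-methylcytosine by the TET enzymes and is known to lie in the bodies of transcribed genes.

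The 8 lists held 104215 to 153637 peaks, and peaks covered a mean of 3.78% to 7.66% of a window. TAC replicate 2 had the lowest mean. In the 6 windows the TAC replicates had few peaks in common, 9 of the 28 peaks of replicate 1 and 9 of the 23 of replicate 2 overlapping a peak of the other, and TAC results are therefore given with each replicate's value. Per the file headers, immunoprecipitated tags were scaled to input in Neonatal replicate 2, Adult replicate 2 and both TAC samples, and input to immunoprecipitated tags in the other 4, and the part of this in the results was not tested. Coverage of CMC marker genes (8 genes, among them Actn2 and Tnnt2) had a median of 8.60% to 35.1% per sample, against 0% to 3.27% for 7 fibroblast genes and 3.39% to 10.2% for 6 endothelial genes. These medians describe the mark and not expression, so the labelled cell type was not tested by them.

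The 6 windows held 253 peaks in the 8 lists together. Of these, 142 were centred in introns, 27 in promoters (1000 bp before to 100 bp after a TSS), 15 in exons and most others in the flanks. Several regions recurred across samples, and the reference sequence (GRCm38, the assembly of mm10) at 4 of them is given here because they are places where many samples had a peak at the same base, away from annotated exons and neighbouring genes; where regions of a gene tied, as in Myl3, the longer shared stretch was taken. Each is written 5′ to 3′ on the strand of the light chain gene or kinase gene, with CpG dinucleotides, where 5-hmC is mainly found, in capitals. The Myl3 sequence (chr9:110762626-110762925, + strand) lies before the TSS, and all of it was inside a peak in 7 of the 8 samples. The Myl4 sequence (chr11:104565295-104565399, + strand) lies in an intron and was inside a peak in 8 of 8 samples. The Myl2 sequence (chr5:122091393-122091692, + strand) lies before the first TSS. It was inside a peak in 6 samples only over its middle 28 bp, and in fewer samples elsewhere. The Mylk3 sequence (chr8:85322254-85322529, - strand) lies after the transcript end and was covered in 7 samples.
Myl3 upstream: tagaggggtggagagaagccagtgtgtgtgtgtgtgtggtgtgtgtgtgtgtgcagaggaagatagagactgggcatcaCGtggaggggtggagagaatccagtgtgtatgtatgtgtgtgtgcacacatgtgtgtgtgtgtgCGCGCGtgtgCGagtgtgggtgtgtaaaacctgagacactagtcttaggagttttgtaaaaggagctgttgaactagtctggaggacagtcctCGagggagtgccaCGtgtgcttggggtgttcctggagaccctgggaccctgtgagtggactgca
Myl4 intron: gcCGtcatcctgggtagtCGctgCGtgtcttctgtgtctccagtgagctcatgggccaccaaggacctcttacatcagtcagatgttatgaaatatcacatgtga
Myl2 upstream: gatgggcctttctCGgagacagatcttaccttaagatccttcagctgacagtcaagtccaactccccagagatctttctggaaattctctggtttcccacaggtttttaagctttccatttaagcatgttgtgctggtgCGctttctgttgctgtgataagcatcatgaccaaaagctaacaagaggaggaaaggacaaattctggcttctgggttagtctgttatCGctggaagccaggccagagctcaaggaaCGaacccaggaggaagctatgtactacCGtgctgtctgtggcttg
Mylk3 downstream: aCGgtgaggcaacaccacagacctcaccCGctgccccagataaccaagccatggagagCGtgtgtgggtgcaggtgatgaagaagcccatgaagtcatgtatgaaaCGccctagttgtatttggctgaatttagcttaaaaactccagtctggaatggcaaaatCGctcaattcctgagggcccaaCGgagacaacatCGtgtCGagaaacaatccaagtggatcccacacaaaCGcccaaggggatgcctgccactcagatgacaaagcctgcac
These stretches held 7, 3, 5 and 9 CpGs in that order, or 2.33, 2.86, 1.67 and 3.26 per 100 bp. The Myl3 stretch contains runs of alternating t and g, with some of its CpGs inside one of them. The Myl4 stretch adjoins a processed pseudogene, Gm11661 in GENCODE, which covers part of the same recurrent region, and reads there can have a near copy elsewhere.

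**Figure D1:**
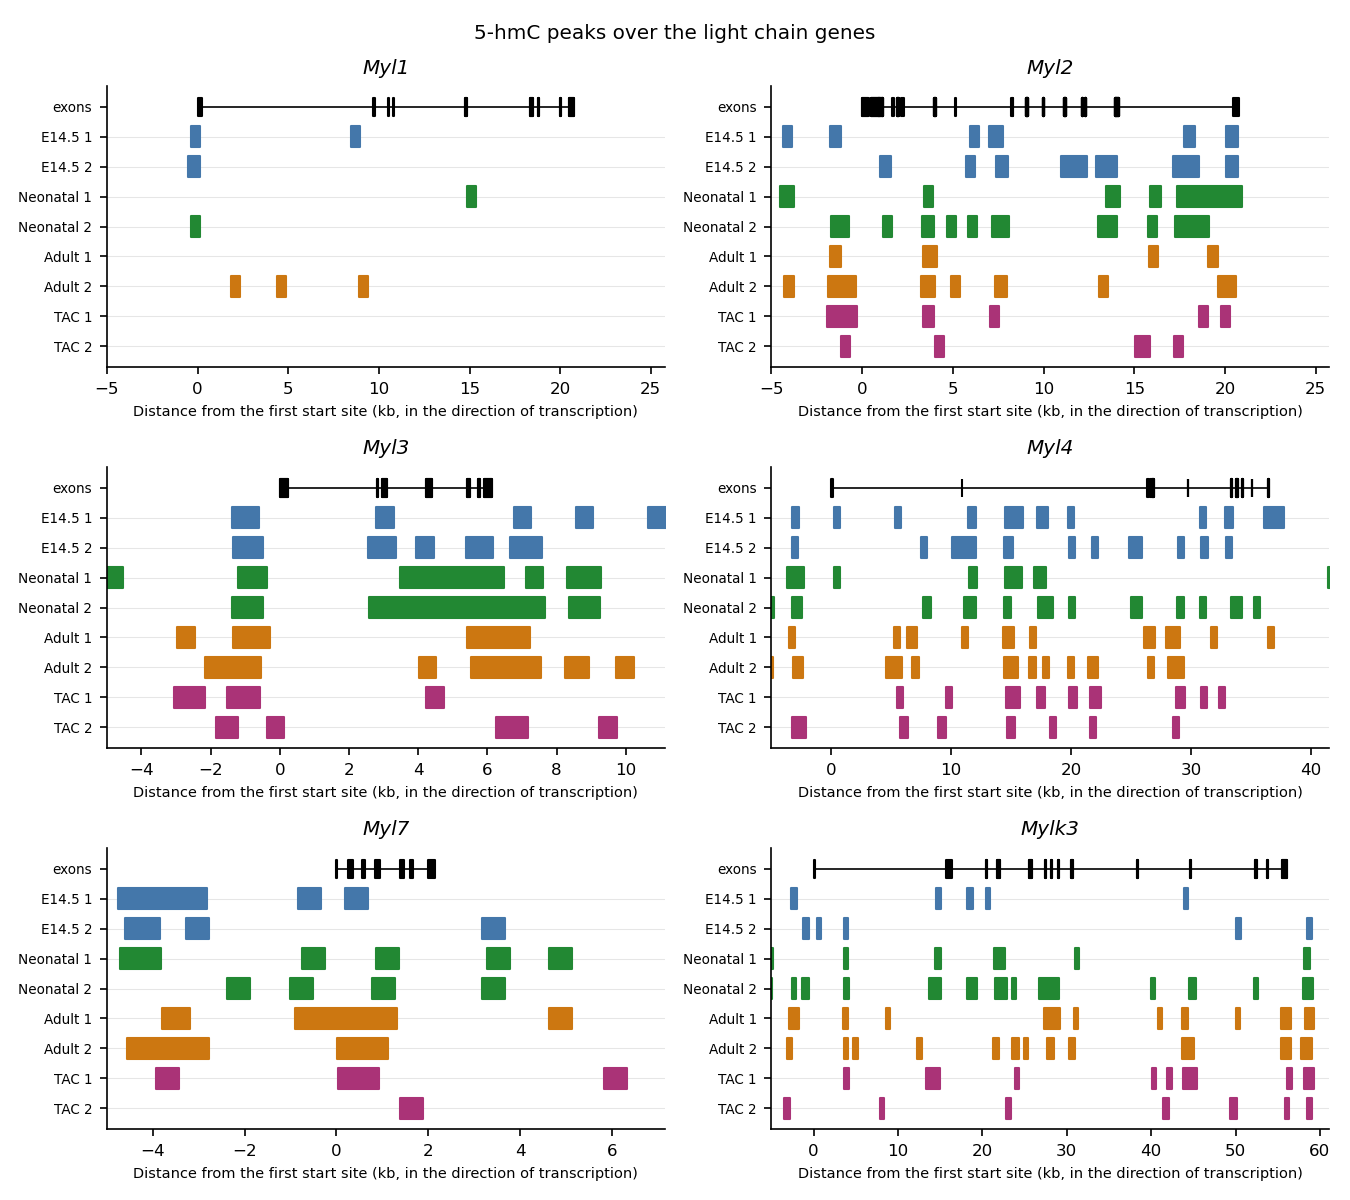
Peaks of each of the 8 samples (rows, coloured by point) over the 6 genes, with the distance from the first TSS in kb on the x axis and the exons of all curated transcripts in black on top. In Myl3 the peaks before the TSS recur in every sample and the broad Neonatal peaks over the GB reach 5115 bp, whereas Myl1 is nearly empty.

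Coverage was first compared over the 4 points. At Myl3 the Neonatal replicates stood above all other samples, and Myl1 was the gene with the lowest coverage in 8 of 8 samples. Over the 4 points, 1 of the 6 genes, Myl3, passed an unadjusted p of 0.05 (exact permutation test, which pairs up the 8 samples in all 105 possible ways and asks, one-sided, whether the labelled pairs lie further apart), against 7.33% of the 19083 windows with a peak in any sample. Of the 19083 windows, 1398 had an unadjusted p below 0.05 and 0 passed after Benjamini-Hochberg adjustment, the smallest adjusted p being 0.596. With limma on log2(percent covered + 1), 0 passed after adjustment and 2134 without it. For peak number, 0 of the 6 genes passed at the unadjusted threshold of the exact permutation test, against 3.55% of windows.

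**Figure D2:**
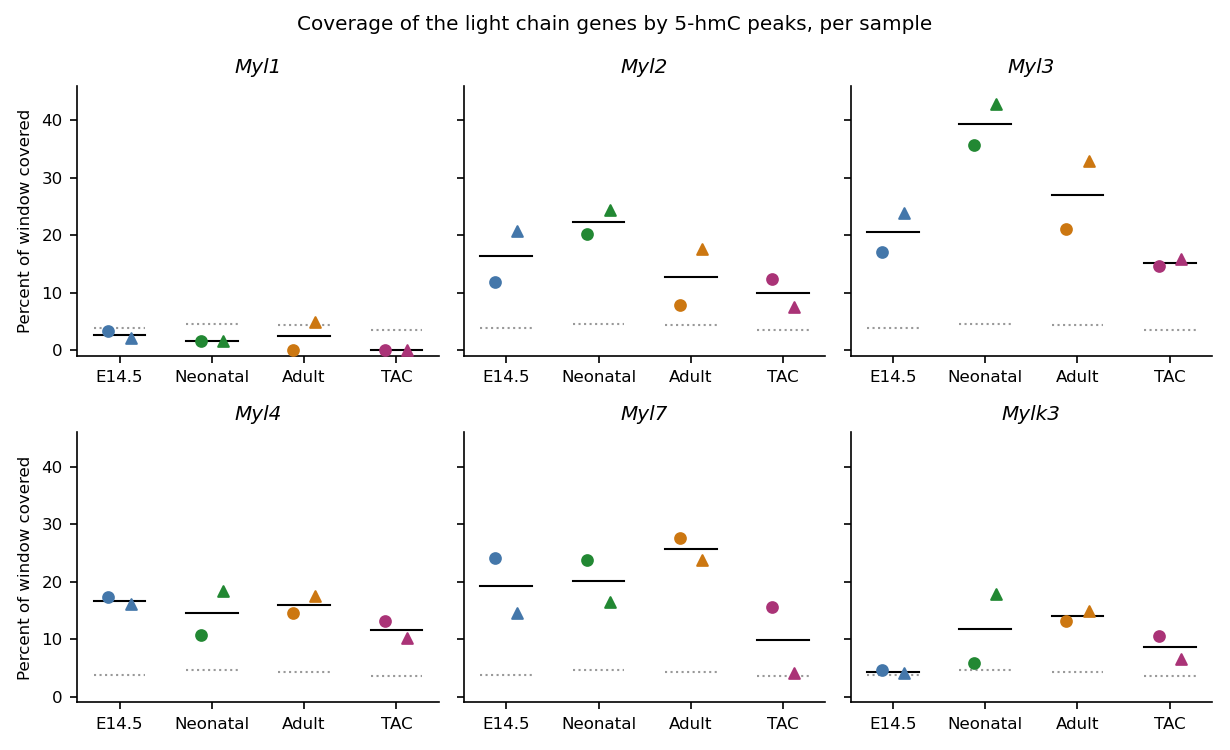
Percent of the window covered by peaks (y axis) at each point for the 6 genes. Circles are replicate 1, triangles replicate 2, black lines means of the 2 replicates, and dotted grey lines the mean of the 2 replicates' medians over all windows with a peak; the Neonatal samples of Myl3 lie at 35.8% and 42.8%, above its other samples.

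Myl3, the essential light chain of the ventricle and of slow skeletal muscle, spans chr9:110763678-110769802 on the + strand. Peaks covered, as percentages of its window, 17.1% and 23.9% (E14.5), 35.8% and 42.8% (Neonatal), 21.1% and 32.9% (Adult) and 14.6% and 15.8% (TAC). The Neonatal samples were the highest and the TAC samples the lowest, and replicates of E14.5 and Adult overlapped. The exact permutation p was 0.0381, and 0.596 after adjustment over all windows. Relative to the mean coverage of each sample over all windows, the values were 3.35 and 4.97, 6.15 and 6.04, 3.69 and 4.30, and 2.58 and 4.19 in the same order, and the exact permutation p was 0.124. Neonatal CMCs still stood highest on that scale, but TAC and Adult overlapped. Leaving out any single sample other than Adult replicate 1 gave an exact permutation p between 0.0667 and 0.210, so the call rested on nearly every sample. The number of peaks did not follow coverage, with 5 and 5, 5 and 3, 3 and 5, and 3 and 4 peaks, since the Neonatal peaks were wider. A single peak of 5115 bp ran over most of the GB in Neonatal replicate 2, wider than 99.7% of the peaks of its list, and one of 3005 bp lay there in Neonatal replicate 1. Over the gene span alone, coverage was 8.18% and 33.1% (E14.5), 43.1% and 58.1% (Neonatal), 11.6% and 17.7% (Adult) and 8.18% and 1.99% (TAC), and the exact permutation p was 0.0667. It was 0.210 with 10 kb on each side and 0.133 without the TAC samples. The region before the TSS (chr9:110762165-110763194), from which the sequence above was taken, was touched by peaks of 8 of 8 samples, and TAC replicate 2 was the sample that missed the bases shared by the other 7. Within 1 kb of the TSS, 19.7% to 35.9% was covered in every sample, a narrower range than over the GB.

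Myl2, the regulatory light chain of the ventricle, spans chr5:122092724-122113473 on the + strand in RefSeq, where several curated transcripts begin well before the most downstream start sites. Coverage was 11.9% and 20.8% (E14.5), 20.3% and 24.4% (Neonatal), 7.85% and 17.7% (Adult) and 12.4% and 7.53% (TAC). Neonatal lay above Adult and TAC without overlap and overlapped E14.5, and the exact permutation p over the 4 points was 0.229. The lists held 6 and 7, 5 and 9, 4 and 7, and 5 and 4 peaks. The window shares 10.4 kb at its 3′ end with Ccdc63, a gene on the opposite strand, or 33.9% of its length, of which 5.42 kb lie in the Myl2 span and the rest in the flank, and the widest Myl2 peak, 3565 bp in Neonatal replicate 1, lay there. Coverage of the shared stretch was 40.3% and 22.9% in Neonatal samples and 9.52% to 19.9% in all others, so that part of the Neonatal value came from there. Outside Ccdc63, an alternative added after seeing the data, coverage was 11.8% and 21.2% (E14.5), 10.1% and 25.1% (Neonatal), 6.95% and 21.9% (Adult) and 13.8% and 6.22% (TAC), and Neonatal and Adult then overlapped. A region of Myl2 (chr5:122096053-122096688) lies in an intron of the longer transcripts and before the most downstream start sites. It had peaks in both Neonatal, both Adult and 1 TAC sample and in 0 of 2 E14.5 samples. The upstream region (chr5:122090922-122092029) had peaks in 1 E14.5, 1 Neonatal, 2 Adult and 2 TAC samples.

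Myl7, the regulatory light chain of the atrium, is the shortest of the 6 genes, at chr11:5896637-5898782 on the - strand. Its window was covered by 24.1% and 14.52% (E14.5), 23.8% and 16.5% (Neonatal), 27.5% and 23.7% (Adult) and 15.7% and 4.12% (TAC). The TAC samples did not overlap the Adult samples, and E14.5, Neonatal and Adult overlapped one another; the exact permutation p was 0.200. TAC replicate 2 contributed a single peak of 501 bp. Across its span, where a peak of that width amounts to 23.3%, coverage was 23.3% and 0% (E14.5), 23.3% and 23.3% (Neonatal), 61.1% and 51.4% (Adult) and 41.9% and 23.3% (TAC). Adult was thus the point with the most of the Myl7 GB inside peaks, although the exact permutation p over the 4 points was 0.114. Around the TSS, 95.4% and 49.1% of the 1 kb on each side was covered in Adult replicates, against 50.1% and 0% at E14.5, 32.0% and 35.2% in Neonatal, and 45.0% and 0% in TAC.

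Myl4, the essential light chain of the atrium and fetal ventricle, spans chr11:104550663-104587215 on the + strand. Coverage was 17.3% and 16.1% (E14.5), 10.8% and 18.4% (Neonatal), 14.6% and 17.5% (Adult) and 13.2% and 10.2% (TAC). All samples fell between 10.2% and 18.4%, the narrowest range relative to its level among the 6 genes, and the exact permutation p was 0.486. The peaks numbered 10 and 10, 6 and 12, 10 and 11, and 9 and 7, and 58 of them were centred in introns. The intronic region that gave the sequence above (chr11:104565055-104566365) was touched by all 8 samples and held 26 CpGs. Before the TSS, where Cdc27, a subunit gene of the anaphase-promoting complex, starts 42 bp away on the other strand, a region at chr11:104547339-104548277 had peaks in 7 samples, all but TAC replicate 1. Within 1 kb of the most upstream Myl4 TSS, 25.1% was covered in E14.5 replicate 1 and Neonatal replicate 1 and 0% in the other 6 samples.

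Myl1 spans chr1:66924295-66945056 on the - strand and carried few peaks. Coverage was 3.26% and 2.07% (E14.5), 1.63% and 1.63% (Neonatal), 0% and 4.89% (Adult) and 0% and 0% (TAC), from 2 and 1, 1 and 1, 0 and 3, and 0 and 0 peaks. It lay below the median of all windows with a peak in all 8 samples, and the exact permutation p was 0.486. The equal Neonatal values came from 1 peak of 501 bp in each replicate at different places. The region at the promoter of the long form (chr1:66944935-66945399) had peaks in both E14.5 samples and 1 Neonatal sample and in 0 of 4 Adult and TAC samples.

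Mylk3, the cardiac light chain kinase gene, spans chr8:85324929-85381041 on the - strand. Coverage was 4.71% and 4.05% (E14.5), 5.81% and 17.8% (Neonatal), 13.1% and 14.9% (Adult) and 10.6% and 6.56% (TAC), with 5 and 5, 6 and 13, 10 and 12, and 8 and 7 peaks. E14.5 samples were the lowest and did not overlap any other point, while the Neonatal replicates lay far apart and spanned the Adult and TAC values. The exact permutation p was 0.305. Neonatal minus E14.5 was 13.4 points without Neonatal replicate 1 and 1.43 points without Neonatal replicate 2. The upstream promoter differed from the window: within 1 kb of the upstream TSS, 44.6% was covered in E14.5 replicate 2 and 22.0% in Neonatal replicate 2, and 0% in the other 6 samples, all Adult and TAC samples among them. A region at the transcript end (chr8:85324505-85325233) had peaks in both Adult and both TAC samples and in 0 of 4 E14.5 and Neonatal samples. Many regions recurred in these windows, and how often such a split arises among all windows was not computed. The same holds for the Myl2 and Myl1 regions above that lacked peaks at some points. The region after the transcript end that gave the sequence above (chr8:85321912-85322883) had peaks in 7 samples, all but E14.5 replicate 1, and an intronic region (chr8:85376933-85377501) had peaks in 6.

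Consecutive points were then compared by whether both replicates of one lay beyond both of the other, since 2 samples against 2 cannot give a two-sided exact permutation p below 0.333. From E14.5 to Neonatal, Myl3 (20.5% ± 4.78 to 39.3% ± 4.96, SD, n = 2) and Mylk3 (4.38% ± 0.470 to 11.8% ± 8.48) were higher, 2 of the 6 genes against 25.3% of windows, and Myl1 (2.66% ± 0.841 to 1.63% ± 0) was lower, against 6.58% of windows. From Neonatal to Adult, Myl2 (22.3% ± 2.87 to 12.8% ± 6.97) and Myl3 (39.3% to 27.0% ± 8.36) were lower, against 21.3% of windows, and 0 of the 6 genes were higher, against 15.5%. Both are ventricular forms, and the Myl2 call was lost outside Ccdc63. Over the gene span, Myl2 and Myl3 were likewise lower in Adult, against 20.3% of the 17216 spans with a peak, whereas the atrial Myl7 was higher, against 15.4%. Counts of 1 or 2 among 6 genes lie near these shares, and no difference between the atrial and ventricular groups was tested.

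From Adult to TAC, 4 of the 6 genes, Myl3 (27.0% to 15.2% ± 0.873), Myl4 (16.0% ± 2.06 to 11.7% ± 2.13), Myl7 (25.6% ± 2.71 to 9.89% ± 8.16) and Mylk3 (14.02% ± 1.25 to 8.57% ± 2.84), were lower without overlap of replicates, against 23.1% of windows. None was higher, against 6.17%. The direction depended on the scale for Myl4: relative to each sample's mean coverage its means were 2.42 in Adult and 2.51 in TAC. Myl3 replicates overlapped on that scale, whereas Myl7 (3.96 to 1.93) and Mylk3 (2.12 to 1.80) stayed lower without overlap. The share of all windows lower on that scale was not computed, and the 23.1% belongs to the unscaled values. Over the gene span, Myl3, Myl7 and Mylk3 were lower in TAC, against 22.4% of spans, and 0 were higher, against 5.65%. Between E14.5 and Adult, Mylk3 alone did not overlap, being 3.20-fold higher in Adult, against 28.2% of windows; 0 of the 6 were lower, against 17.7%.

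**Figure D3:**
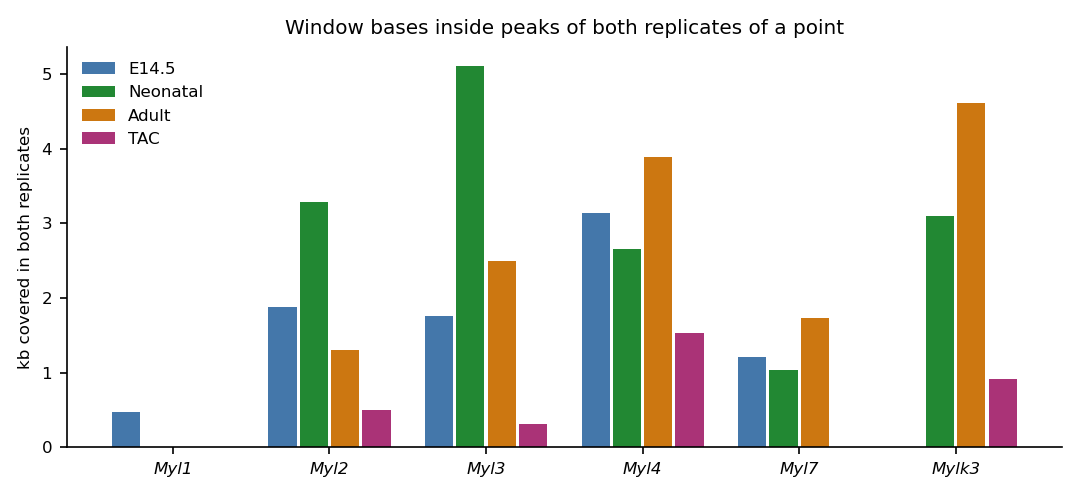
Kilobases of each window inside peaks of both replicates (y axis, 1 value per point and gene). Over the whole window Myl2, which includes bases of Ccdc63, and Myl3 have most shared bases in Neonatal, Myl4, Myl7 and Mylk3 in Adult, and Myl7 has none in TAC.

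Bases covered in both replicates gave a view that isolated peaks of 1 sample do not enter. In Myl3 they amounted to 1757 bp at E14.5, 5108 bp in Neonatal, 2501 bp in Adult and 310 bp in TAC CMCs, and in Myl2 to 1881, 3289, 1309 and 501 bp. Both were longest in Neonatal CMCs over the whole window, but outside Ccdc63 Myl2 had 623, 1129, 1309 and 501 bp, the longest in Adult CMCs. Myl4 had 3143, 2654, 3895 and 1536 bp, Myl7 1208, 1033, 1730 and 0 bp, and Mylk3 0, 3096, 4616 and 917 bp. These were longest in Adult CMCs for all 3 genes, and shortest in TAC CMCs for Myl4 and Myl7. Myl1 had 481 bp at E14.5 and 0 at the other points. These lengths have 1 value per point and no test, and the low TAC lengths accompanied the low share of peaks common to the TAC replicates, 9 of 28 and 9 of 23 peaks in these windows, against 20 of 30 and 21 of 40 in Adult.

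Atrial and ventricular isoforms were also compared within each sample, where both genes share the library. For the regulatory pair, Myl7 coverage exceeded that of Myl2 in 5 of 8 samples, by 19.7 and 6.02 percentage points in Adult, 12.2 in E14.5 replicate 1, 3.53 in Neonatal replicate 1 and 3.28 in TAC replicate 1. The differences were -6.25, -7.86 and -3.41 points in the second replicates of E14.5, Neonatal and TAC. At every point except Adult the replicates went opposite ways. Between the spans the difference was positive in both Adult samples, 52.6 and 35.0 points, and in both TAC samples, 31.7 and 14.6 points, negative in both Neonatal samples, -2.12 and -8.04 points, and of opposite sign in the E14.5 samples, 11.1 and -30.8 points. The Myl7 span held 0 or 1 peak in each sample. A peak of 501 bp is 23.3% of that span but 2.41% of the Myl2 span, so these span differences move in large steps with a single peak. For the essential pair, Myl4 minus Myl3 was negative in 7 of 8 samples over the window, at -25.0 and -24.4 points in Neonatal and between -15.5 and -1.42 points in the other 5, and it was 0.170 points in E14.5 replicate 1. Within the span of the genes the order was the reverse in 5 of 8 samples, all Adult and TAC samples among them, where Myl4 lay above Myl3 by 2.08 to 8.62 points. The window order in Adult and TAC therefore rested on peaks in the flanks of Myl3. Myl3 exceeded Myl1 in 8 of 8 samples over either stretch.

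**Figure D4:**
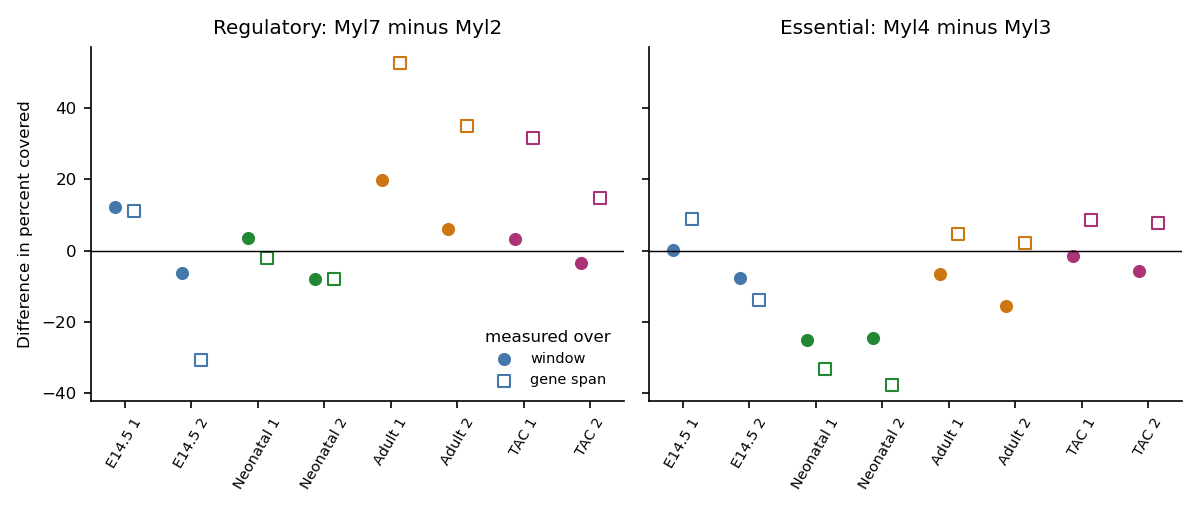
Difference in percent covered between the atrial and the ventricular form in each sample (x axis), for the regulatory pair on the left and the essential pair on the right; filled circles are windows and open squares gene spans. Over the gene span both pairs lie above 0 in the 4 Adult and TAC samples and below 0 in the 2 Neonatal samples. The Myl7 span held 0 or 1 peak per sample, and a peak of 501 bp is 23.3% of it.

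Among all windows with a peak, Myl3 lay at the 87.8th to 99.4th percentile across samples, Myl7 at the 59.99th to 98.1st, Myl2 at the 70.6th to 97.8th, Myl4 at the 80.9th to 94.7th and Mylk3 at the 52.6th to 88.6th. Myl1 lay at or below the 49.9th percentile. Myl2, Myl4 and Myl7 overlapped one another and Myl3 in their ranges over samples, so no order among them is read from these levels.

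Of 22 other genes of light chains and light chain phosphorylation, 3 had an unadjusted p below 0.05 in the exact permutation test and 0 after adjustment, against 7.33% of all windows. Camk2d, a calmodulin-dependent kinase gene, was covered by 12.3% and 6.08% (E14.5), 19.6% and 22.0% (Neonatal), 15.1% and 13.2% (Adult) and 12.4% and 10.8% (TAC) (exact permutation p = 0.0381, adjusted p = 0.596). Ppp1r14c, an inhibitor gene of protein phosphatase 1, showed 22.6% and 22.1% in Neonatal samples and 8.34% to 11.5% in the other 6 (exact permutation p = 0.0476). Both genes, like Myl3, were highest in Neonatal CMCs. Ppp1cb, a catalytic subunit of the phosphatase that acts on light chains, showed 1.62% and 2.94% (E14.5), 12.2% and 8.11% (Neonatal), 9.61% and 8.48% (Adult) and 3.36% and 4.51% (TAC) (exact permutation p = 0.0476). The highest mean coverage of the list over the 8 samples was found at the calmodulin genes Calm3 (34.1%) and Calm2 (22.5%) and the light chain genes Myl12b (25.6%) and Myl12a (20.98%), which act in non-muscle and smooth muscle myosin. Median coverage of the list ranged from 7.39% in TAC replicate 2 to 20.7% in Neonatal replicate 2, against 3.23% to 4.96% for all windows with a peak.

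The genes whose coverage was most like that of each gene over the 8 samples, among windows with a mean of at least 5%, were Tmem182 (Pearson r = 0.979) and Arhgef2 (0.977) for Myl3, Flt3l (0.970) and Msra (0.965) for Myl2, Sphk1 (0.962) and Ryk (0.948) for Myl7, and Cela1 (0.973) and Galnt10 (0.963) for Myl4. For Myl1 they were Zbtb7c (0.978) and Begain (0.962), and for Mylk3 Plekha1 (0.981). The 8 samples behind each correlation are the same libraries, so these are descriptions, and 16 to 100 genes had r above 0.9 with each of the 6.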

How the data were processed

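The authors immunoprecipitated 5-hmC from CMC DNA, aligned reads to mm10 with BWA 0.7.4-r385, marked duplicates with Picard, kept mapping quality above 10 and called peaks per replicate with HOMER against input. The deposited lists give each peak's position, and their score column is the same for all peaks. They hold no read numbers, so depth per sample could not be taken from them. The paper reports read numbers by condition, which were not used here. Gene spans came from curated RefSeq transcripts (GRCm38). Percent covered and peak number were computed per window (span and 5 kb on each side). The 6 genes and the gene lists were chosen with earlier results of these data known. The 4 points were compared with the exact permutation test described above, adjusted over 19083 windows (Benjamini-Hochberg); limma 3.58.1 (R 4.3.3), with a pseudocount of 1, was an alternative, as were other flanks, scaling to sample means, peaks found in both replicates and leaving out each replicate. Code ran in Python 3.11.15 with numpy 2.4.6 and was tested on simulated data. Genes named beside the 6 were those of a 22-gene list with an unadjusted p below 0.05 or among its 4 highest mean coverages, and up to 2 most alike in coverage; items withheld from the text are not reported here. Sequences were read from the GRCm38 genome. Input and sh-control libraries, RNA-seq and H3K27ac data were not analysed here.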

Additional observations from a re-analysis of the deposited data

How the results depend on the processing

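The number of the 6 genes with an exact permutation p below 0.05 over the 4 points, 1 for percent covered, was 0 over the gene span alone, 0 with 10 kb on each side, 0 relative to the sample mean and 0 in the 6 samples without TAC (added after seeing the data), and ranged from 0 to 2 when each replicate was left out in turn. It was 1 with limma and with GENCODE M21 gene spans (also added after seeing the data). All these counts are of unadjusted p-values, and the exact permutation test gave Myl3 an adjusted p of 0.596. With peaks shared with the other replicate the count was 5, and 5 for peak number, a filter that makes replicates alike by construction. The count for peak number, 0, ranged from 0 to 1 without single replicates. Differences between replicates 1 and 2 correlated weakly over windows from point to point (correlations from -0.23 to 0.21). That measure cannot show a shift shared by a whole library. Mean coverage was higher in replicate 2 for Neonatal and Adult and lower for E14.5 and TAC. With a replicate block the count stayed at 1 for percent covered (Myl3, exact permutation p = 0.0417) and 0 for peak number.

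Genes whose replicates did not overlap numbered 3 from E14.5 to Neonatal (5 with shared peaks, 4 to 5 without single replicates), 2 from Neonatal to Adult (5 with shared peaks, 3 to 5 without single replicates), 4 from Adult to TAC (2 with 10 kb, 2 relative to the sample mean, 4 to 6 without single replicates) and 1 from E14.5 to Adult (2 over the gene span, 3 relative to the sample mean, 6 with shared peaks, 2 to 5 without single replicates). Leaving out a replicate makes overlap less likely by construction. These counts add higher and lower genes together. In the reported setting the shares of windows, higher and lower, were 25.3% and 6.58% (E14.5 to Neonatal) and 15.5% and 21.3% (Neonatal to Adult). They were 6.17% and 23.1% from Adult to TAC, and 28.2% and 17.7% from E14.5 to Adult. For the other counts in this list no share was computed, so they cannot be set against one. Of 244 recomputed differences of single genes, 185 moved by less than the SD of replicates and 32 changed sign, 4 of them relative to the sample mean. Of the 32, 5 had replicates that did not overlap in the reported setting. Within 1 kb of the most upstream TSS alone these were Mylk3 from E14.5 to Neonatal (-11.3 points) and to Adult (-22.3 points), and Myl2 (10.7 points) and Myl3 (0.650 points) from Neonatal to Adult. The remaining one was Myl4 from Adult to TAC relative to the sample mean (0.535 points). Other start sites did not all go the same way. At the downstream Mylk3 TSS, coverage was 18.9% and 0% (E14.5), 16.4% and 17.25% (Neonatal) and 0% and 0% (Adult). At the Myl2 TSS 8.23 kb after the first, it was 0% and 42.05% (Neonatal) and 0% and 32.75% (Adult). Outside Ccdc63 the Myl2 difference from Neonatal to Adult went from -9.55 to -3.16 points, and its replicates overlapped. The cause was not tested. With 2 samples per point and no read numbers, the precision of each value cannot be given beyond the 2 replicates.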
